A study of Mus musculus with 8 samples.

Results

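The genes described here are those of activator protein 1 (AP-1) and Atf3, taken as every probe set that the array annotation assigns to exactly 1 of the symbols Fos, Fosb, Fosl1, Fosl2, Jun, Junb, Jund and Atf3. The rule uses no measured value and gave 12 probe sets of 8 genes among 45101 probe sets, and 0 further probe sets carried a member symbol beside another gene. Per the labels, RNA came from primary rib chondrocytes, the cells that make cartilage, of FVB mouse embryos at E18.5, freed from the rib cage by collagenase and trypsin at 37 degrees and strained before storage in Trizol. There were 4 Hoxc8 transgenic samples and 4 control samples labelled wild type, 1 of each genotype from each of 4 litters, called litters 1 to 4 here in the order of the replicate numbers, and each sample was hybridised to 1 Affymetrix array. Embryos of a litter were grouped by genotype, so a sample may hold several embryos. The promoter that drives the transgene, the number of embryos in a sample and their sex are not stated in the labels. Hoxc8 itself gave 4096, 3400, 3810 and 4235 array units in the transgenic samples of litters 1 to 4, against 4112, 3066, 3755 and 3143 in the controls. The groups overlapped (0.15 log2, SE 0.12, limma adjusted p = 0.99993), so the genotypes below are those of the labels and were not borne out by this probe set; the labels do not say where it lies relative to the transgene.

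AP-1 is a transcription factor made of a Fos protein and a Jun protein, or of a pair of Jun proteins, joined by a leucine zipper beside a basic region that binds DNA. Fos, Fosb, Jun and Junb are immediate early genes, which are transcribed within minutes of serum, growth factors, mechanical strain or cell stress without new protein synthesis, and their RNAs decay fast. Atf3 belongs to the related ATF family, pairs with Jun proteins and is induced by many stresses. In cartilage, Fos proteins act in chondrocyte differentiation and AP-1 drives genes of matrix breakdown, and enzymatic dissociation of tissue at body temperature is known to induce the immediate early genes.

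The litters differed and the genotypes did not pass the test. Fos, Fosb, Jun, Junb, Jund and Atf3 differed between litters by limma's moderated F-test, and both arrays of litter 4 lay below every other array for each of them. Both arrays of litter 2 lay above every other array for the same genes except Fosb. Mean signals were between 1.35 times (Fos) and 2.89 times (Atf3) as high in litter 2 as in litter 4. Within a litter the ratio of transgenic to control signal stayed between 0.897 and 1.34 for these probe sets.

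Signals are the deposited array units, and differences are on the scale log2(signal + 22.13), which understates the change of dim probe sets. Fos signals lay between 25438 and 36154, and the highest signals on the arrays between 51570 and 65240. Mean Jun signal in litter 2 was 1.78 times that in litter 4 by its brighter probe set and 1.98 times by its dimmer. Whether the change of such bright probe sets is understated too was not tested. Of the 12 probe sets, 9, from 7 genes, had a mean signal of at least 110 and were tested with all 22519 probe sets past that filter, at a Benjamini-Hochberg adjusted p of 0.05. Fosl1, with both its probe sets, and the dimmer probe set of Jund fell below it. Probe sets differ in brightness for reasons of their design, so no gene's signal is set against another's here.

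**Figure D1:**
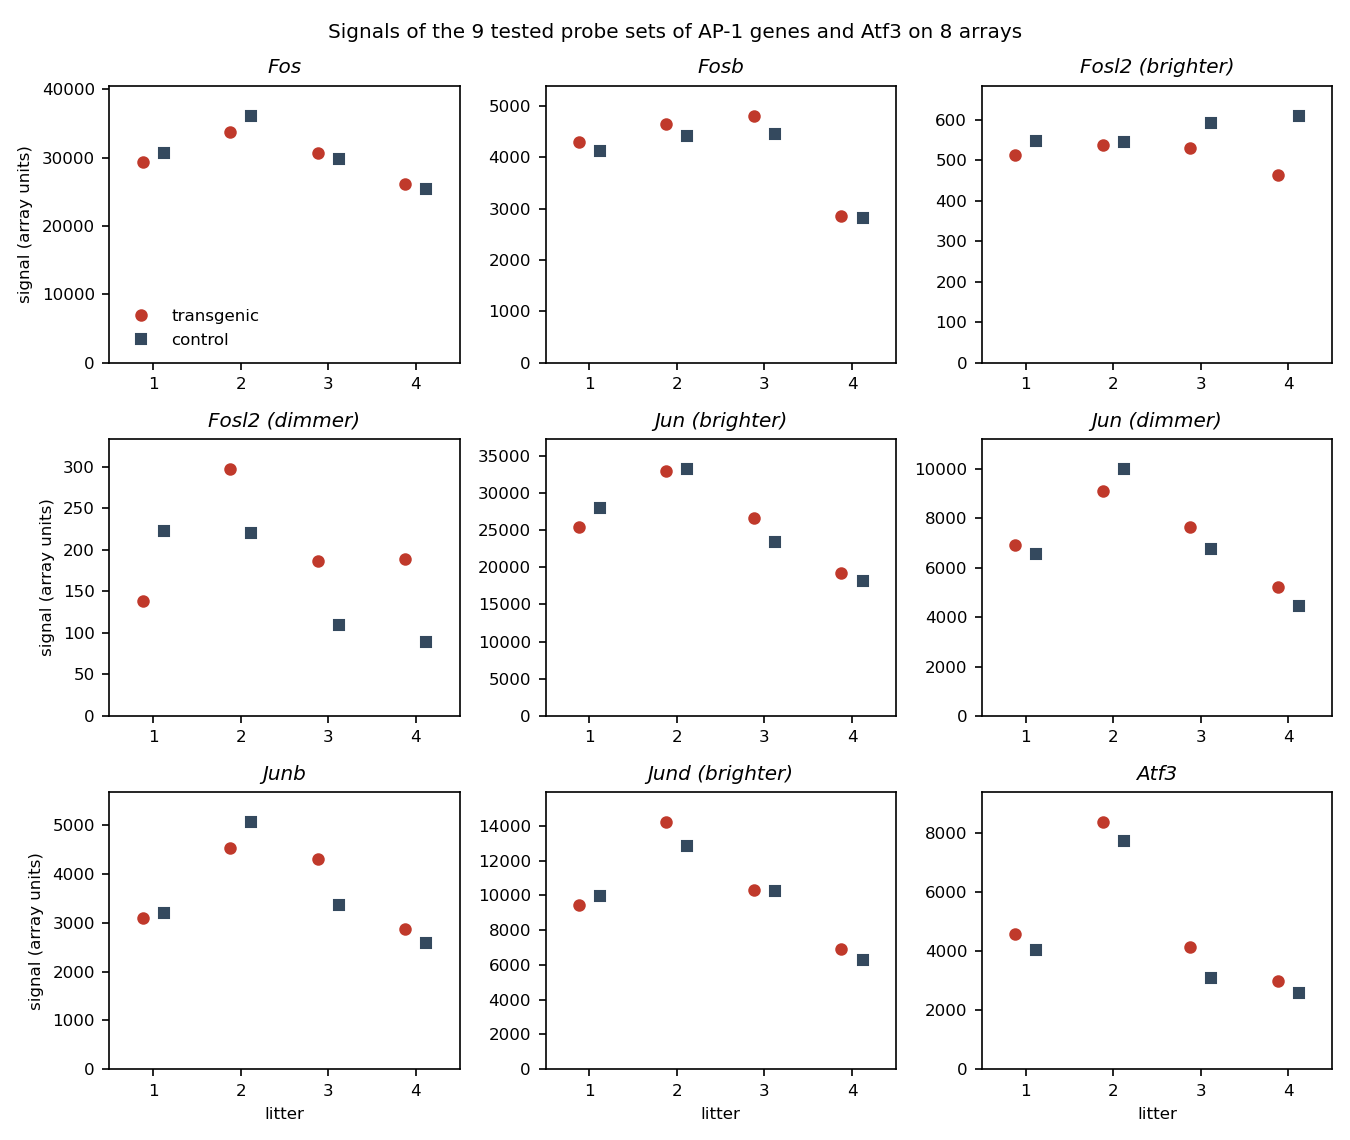
Signal in array units (vertical axes from 0) by litter number for the 9 tested probe sets, with circles for transgenic and squares for control arrays, 1 array per point. In the panels of Fos, Jun, Junb, Jund and Atf3 both points of litter 2 are the highest and both points of litter 4 the lowest, while the circle and square of litter 3 lie apart for Junb (4319 and 3376) and Atf3 (4127 and 3082); the brighter Fosl2 probe set shows no such order.

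Fos, the founding Fos family gene, gave 29374, 33786, 30730 and 26210 array units in the transgenic samples of litters 1 to 4, against 30756, 36154, 29871 and 25438 in the control samples. Both samples of litter 2 were highest and both of litter 4 lowest, and the samples of litters 1 and 3 overlapped. Litter 2 stood 0.29 log2 (SE 0.07) above the mean of the other litters (limma adjusted p = 0.0300) and litter 4 fell by 0.30 log2 (SE 0.07, adjusted p = 0.0210). The F-test over the litters gave an adjusted p of 0.0320. The F-test of Fos missed the threshold in 12 of 21 other settings, which were leaving out any 1 of the 8 arrays, litter 2 or litter 4, no filter, and eBayes without an intensity trend.

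Fosb, a Fos paralogue with a similar immediate early response, gave 4302, 4641, 4808 and 2863 in the transgenic samples of litters 1 to 4, against 4116, 4406, 4450 and 2815 in the controls. Litter 4 was the lowest for Fosb and fell by 0.64 log2 (SE 0.08, limma adjusted p = 0.000787), while litters 2 and 3 overlapped at the top. Litter 2 was 0.25 log2 above the others, which did not pass (adjusted p = 0.0788). The F-test (adjusted p = 0.00263) was lost without litter 4 (adjusted p = 0.598) and with eBayes without a trend (0.121).

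Fosl2, whose protein is a Fos-related antigen with roles in bone and cartilage, was measured by a pair of probe sets that did not match each other. The brighter gave 512.7, 537.2, 530.2 and 463.5 in the transgenic samples and 547.2, 545.5, 592.8 and 610.5 in the controls of litters 1 to 4. Its litters overlapped and its F-test gave an adjusted p of 0.970. The dimmer gave 138.1, 297.5, 186.5 and 189.0 in the transgenic samples and 222.2, 220.3, 109.0 and 88.8 in the controls, so that the samples of 1 litter differed by up to 2.13 times. Litter 2 had a difference of 0.70 log2 (SE 0.28) there, and neither this contrast (limma adjusted p = 0.152) nor the F-test (adjusted p = 0.265) passed.

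Fosl1, another Fos-related antigen gene, stayed below the signal filter. Its brighter probe set gave 54.4, 106.6, 48.3 and 92.3 in the transgenic samples of litters 1 to 4, against 70.1, 133.0, 37.1 and 72.2 in the controls. Both samples of litter 2 were the highest, and litter 3, not 4, held the lowest. Tested without a filter, litter 2 was 0.77 log2 above the others and did not pass (limma adjusted p = 0.303). Its other probe set lay between 5.62 and 27.0.

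Jun, the main partner of Fos, was measured by a pair of probe sets that both passed. The brighter gave 25418, 32984, 26631 and 19155 in the transgenic samples of litters 1 to 4, against 28026, 33229, 23342 and 18097 in the controls. Its litter 2 samples lay above and its litter 4 samples below all others, and litter 1 overlapped litter 3. Litter 2 stood 0.52 log2 (SE 0.08) above the others (limma adjusted p = 0.00279) and litter 4 fell by 0.59 log2 (SE 0.08, adjusted p = 0.00134). The dimmer probe set gave 6924, 9096, 7662 and 5222 in the transgenic samples, against 6541, 10012, 6749 and 4440 in the controls, with the same litters at both ends. It gave 0.63 log2 (SE 0.09) for litter 2 and fell by 0.68 log2 (SE 0.09) in litter 4, with F-test adjusted p of 0.00135 against 0.00192 for the brighter.

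Junb, a Jun paralogue that can restrain Jun, gave 3106, 4546, 4319 and 2868 in the transgenic samples of litters 1 to 4, against 3209, 5069, 3376 and 2587 in the controls. The order of its litter means put 2 first, then 3, 1 and 4, with no overlap between neighbours. The transgenic sample of litter 3 came close to the lower of the litter 2 samples. Litter 2 stood 0.58 log2 (SE 0.10) above the others (limma adjusted p = 0.00676), and litter 4 fell by 0.50 log2 (SE 0.10, adjusted p = 0.0114). Without the control sample of litter 2, the rise in that litter was 0.43 log2 with an adjusted p of 0.212.

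Jund, the Jun family gene that is expressed most steadily in resting cells, moved with the immediate early members. Its brighter probe set gave 9440, 14218, 10306 and 6930 in the transgenic samples of litters 1 to 4, against 9970, 12869, 10235 and 6307 in the controls. Litter 2 stood 0.64 log2 (SE 0.08) above the others (limma adjusted p = 0.000602), and litter 4 fell by 0.74 log2 (SE 0.08, adjusted p = 0.000383). Its other probe set, under the filter, gave 127.5, 65.8, 105.6 and 108.1 in transgenic and 122.1, 60.9, 58.7 and 15.7 in control samples and did not show this order; the brighter had litter 2 above and litter 4 below all other samples. Without a filter its F-test gave an adjusted p of 0.561.

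Atf3 had the widest litter range among the tested members. It gave 4569, 8368, 4127 and 2982 array units in the transgenic samples of litters 1 to 4, against 4047, 7713, 3082 and 2574 in the controls. Litter 2 had 1.87 times the mean signal of litter 1 and 2.89 times that of litter 4. On the fitted scale litter 2 stood 1.20 log2 (SE 0.08) above the others (limma adjusted p = 2.71e-05), litter 4 fell by 0.84 log2 (SE 0.08, adjusted p = 0.00033) and litter 3 fell by 0.36 log2 (SE 0.08, adjusted p = 0.0446). The rise in litter 2 passed under all 17 other settings tried for it.

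**Figure D2:**
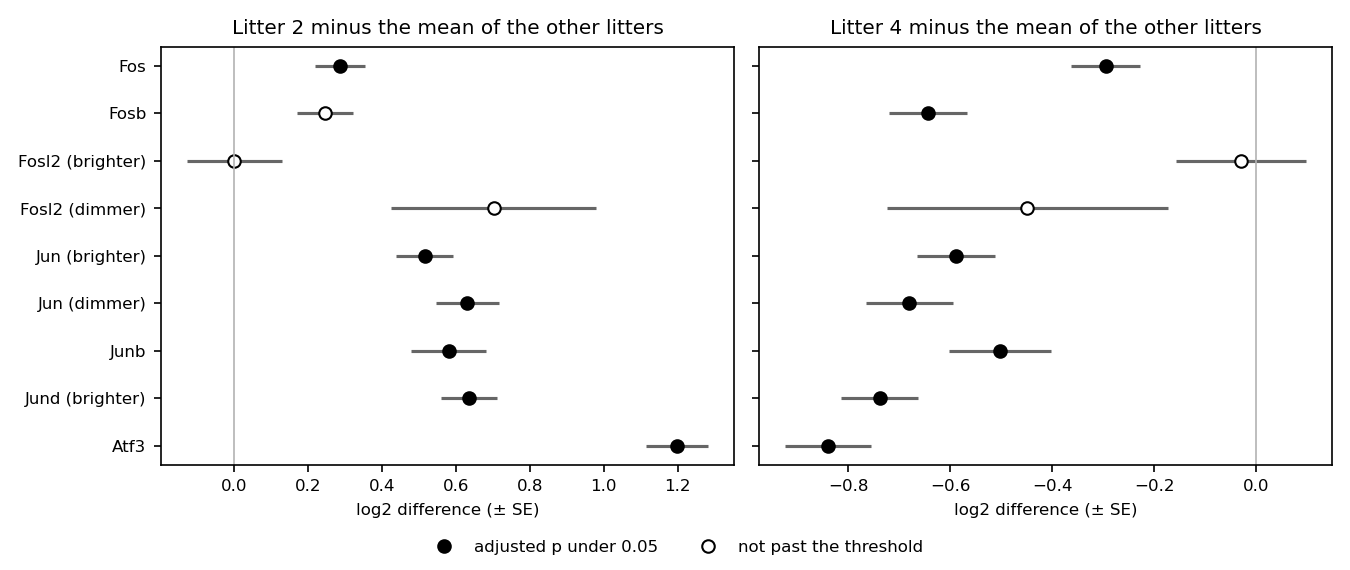
Fitted log2 difference of litter 2 (left) and litter 4 (right) from the mean of the other litters for the 9 tested probe sets, with bars of 1 SE; filled points passed an adjusted p of 0.05 by limma. For litter 2 the filled points run from 0.29 (Fos) to 1.20 (Atf3), and for litter 4 from -0.30 (Fos) to -0.84 (Atf3); the brighter Fosl2 probe set sits at 0.0017 and -0.030.

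Counted over the table, 7 of the 9 member probe sets passed the F-test between litters, where 9% of all probe sets tested passed. Litter 2 was higher than the others for 6 of the 9, against 3.62% of all probe sets, and lower for 0, against 2.36%. Litter 4 was lower for 7 of the 9, against 5.56%, and higher for 0, against 3.27%. Litter 3 was lower for 1, Atf3, against 1.34%, and higher for 0, against 1.45%, and litter 1 had 0 calls in either direction among members and 0% among all probe sets. With the array medians aligned, the share of higher calls among all calls moved to 32%, from 60.5%, for litter 2. It moved to 75.3%, from 52%, for litter 3 and to 28.3%, from 37%, for litter 4. Under that setting 5 members stayed called higher in litter 2, beside 578 of all 22519 probe sets. Called lower in litter 4 were 7 members, beside 1325 of 22519.

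Without regard to a model, both arrays of litter 2 exceeded all others for 6 of the 9 member probe sets, against 10.8% of all probe sets. Both arrays of litter 4 lay below all others for 7 of the 9, against 11.1%, and 6 of the 9 did both, against 1.97%. The F-test calls depend on how variances are shared between probe sets: with eBayes without an intensity trend, 0 of the 9 members and 0 of 22519 probe sets passed, the adjusted p lying between 0.0866 (Atf3) and 0.2425 (Fos) for the called genes. The labels give no day of dissection or processing, so litter and preparation cannot be told apart.

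Signals of the called genes ran in parallel over the 8 samples. Pearson correlations of log2 signal between pairs of Fos, Fosb, Jun, Junb, Jund and Atf3 lay between 0.649 (Fosb with Atf3) and 0.973 (Fos with Jun), over arrays that share litters, and Fosl2 lay between -0.153 and 0.0893 with them. The genes most like Fos outside the family were Fzr1 (r = 0.987), an activator of the anaphase promoting complex; Actg1 (0.979), cytoplasmic gamma-actin; the circadian gene Noct (0.978); Dusp1 (0.974), a MAP kinase phosphatase; Herpud1 (0.974), of the endoplasmic reticulum stress response; and Sobp (0.963). Those most like Atf3 were Map4k4 (0.993), a kinase upstream of JNK, Gadd45g (0.992), a stress-induced growth arrest gene, the chaperone gene Dnajb4 (0.984), the antiproliferative gene Btg2 (0.976), Ifrd1 (0.974) and Cyp51 (0.973), of sterol synthesis. These are descriptions over 8 arrays among 10989 genes tested. The highest signal of Map4k4 was only 1.22 times its lowest. Neither Map4k4 (limma F-test adjusted p = 0.289) nor Fzr1 (0.127) passed between litters, while the other genes named for likeness did. Among these, Dnajb4 (limma F-test adjusted p = 0.0476) and Sobp (0.0492) passed narrowly. The F-test was lost in 14 of 21 other settings for Dnajb4 and in 14 of 20 for Sobp.

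Promoters of Fos, Jun and Atf3 are shown because these genes moved together over the litters. RefSeq promoters of build GRCm38.p6 were at hand for 7 of the 8 genes, and the 250 bases before the gene start were searched on both strands for a CRE (TGACGTCA), its half-site (TGACG), an AP-1 element (TGANTCA), the AP-1-like element described in the Jun promoter (TGACATCA), a TATA element (TATAAA) and the CArG box bound by serum response factor. The half-site is part of the full CRE. Below, capitals mark the matches and each sequence runs 5′ to 3′ on the gene's strand.
Fos, chr12:85473640-85473889, plus strand: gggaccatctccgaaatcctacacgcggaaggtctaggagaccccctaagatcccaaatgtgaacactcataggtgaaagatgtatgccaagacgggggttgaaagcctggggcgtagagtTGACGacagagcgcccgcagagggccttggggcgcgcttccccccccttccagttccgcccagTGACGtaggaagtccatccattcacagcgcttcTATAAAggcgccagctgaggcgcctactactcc
Jun, chr4:95052223-95052472, minus strand: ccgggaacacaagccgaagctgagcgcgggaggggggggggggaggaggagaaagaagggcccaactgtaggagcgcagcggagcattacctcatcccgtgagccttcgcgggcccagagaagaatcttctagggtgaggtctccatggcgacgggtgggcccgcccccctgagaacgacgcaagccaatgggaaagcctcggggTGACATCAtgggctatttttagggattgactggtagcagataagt
Atf3, chr1:191183334-191183583, minus strand: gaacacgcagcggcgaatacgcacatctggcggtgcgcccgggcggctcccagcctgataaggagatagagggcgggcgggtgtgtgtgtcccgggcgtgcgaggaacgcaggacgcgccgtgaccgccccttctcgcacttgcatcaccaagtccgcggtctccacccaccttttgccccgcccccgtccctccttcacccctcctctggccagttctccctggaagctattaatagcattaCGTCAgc
Fos held the half-site at 129 to 125 and at 66 to 62 bases before its start and TATAAA at 33 to 28 bases before it. Jun held TGACATCA at 45 to 38 bases before its start, and Atf3 the half-site on the opposite strand at 7 to 3 bases before its start. The half-site lay in the windows of Fos, Fosb, Junb and Atf3 (4 of 7), against 17.8% of 32851 promoters, TATAAA in Fos alone among the 7, against 12.4%, and TGACATCA in Jun alone, against 2.93%. The full CRE (1.55% of promoters), TGANTCA (6.75%) and the CArG box (1.47%) were in 0 of the 7 windows, which says only that these letters are not within them.

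Between genotypes no member passed. Atf3 averaged 5011 ± 2335 in transgenic and 4354 ± 2321 in control samples (SD, n = 4 each), and its transgenic sample was the higher in 4 of 4 litters, by 1.13, 1.08, 1.34 and 1.16 times in litters 1 to 4. The difference was 0.23 log2 (SE 0.33; limma adjusted p = 0.99993), and once litter entered the model the SE shrank to 0.07, the 95% interval ran from 1.05-fold to 1.31-fold and the unadjusted p was 0.00809, but the adjusted p was 0.9998. Without litter 3 that unadjusted p was 0.0716. Fos averaged 30025 ± 3142 in transgenic and 30555 ± 4399 in control samples, with an interval from 0.833-fold to 1.17-fold. With litter as a block the Fos interval ran from 0.902-fold to 1.08-fold.

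By limma 0 of the 9 member probe sets passed between genotypes, against 0% of all 22519, and 0 had an unadjusted p under 0.05, against 1.09%. With litter as a block again 0 passed, against 0%, and 1, Atf3, had an unadjusted p under 0.05, against 3.34%. Transgenic samples were higher on average for 7 of the 9 and lower for 2, Fos and the brighter Fosl2 probe set, with a median of 0.07 log2 against -0.0034 over all probe sets. Transgenic samples were the higher in all 4 litters for 2 of the 9 (Fosb and Atf3), against 5.2%, and the lower in all 4 for 1 (the brighter Fosl2 probe set), against 5.43%. Half-widths of the 95% intervals had a median of 0.43 log2 without the litter and 0.16 log2 with it, and with the block the widest bounds over the members were 0.757-fold and 1.83-fold, both from Fosl2. Whether the genotype difference varies between litters could not be tested with 1 array per genotype and litter.

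**Figure D3:**
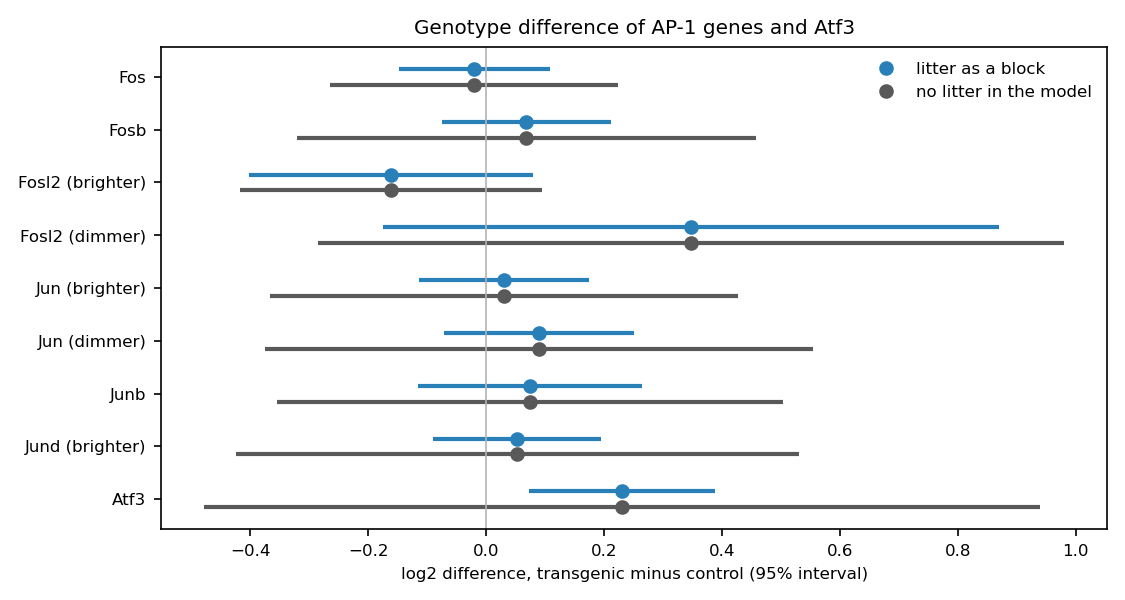
Fitted transgenic minus control difference in log2 with 95% intervals for the 9 tested probe sets, with litter as a block (blue) and without (grey). The grey intervals of all 9 span 0; with the block the interval of Atf3, from 0.07 to 0.39 log2, lies above 0, and its adjusted p over all probe sets was 0.9998.

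The other genes of the immediate early response were read from a list of 29, of which 26 were tested. Between litters 21 of the 26 passed, against 9.91% of the 10989 genes tested; litter 2 was higher for 18, against 3.09% of all genes, and lower for 0, against 3%. Litter 4 was lower for 22, against 5.87%, and higher for 0, against 4.12%. The median difference was 0.63 log2 for litter 2, against -0.03 over all genes, and -0.71 log2 for litter 4, against 0.02. The count was 0 of 26 with eBayes without an intensity trend and between 11 (without litter 4) and 23 when arrays or litters were left out; without litter 2 it was 14. The 5 that did not pass, named after their values were seen, were Dusp6, Klf6, Gem, Egr3 and Btg1, and Nr4a3, Dusp2 and Arc lay below the filter.

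The members of that list with the smallest F-test p were Zfp36, Rhob, Myc and Egr1. Zfp36, whose protein destabilises AU-rich RNAs, gave 7533, 10041, 10076 and 4150 in transgenic samples of litters 1 to 4, against 6516, 9721, 7802 and 4141 in controls, and fell by 1.03 log2 (SE 0.09) in litter 4 (limma adjusted p = 0.000127). For Egr1, a zinc finger immediate early factor, litter 4 stood at 10698 in the transgenic and 9211 in the control sample, below all other samples, which lay between 15617 and 18698. Rhob, a small GTPase gene, rose by 0.84 log2 (SE 0.09) in litter 2 and fell by 0.86 log2 (SE 0.09) in litter 4, and Myc by 0.87 and 1.00 log2 (SE 0.10 each; limma adjusted p of 0.000414 and 0.00032).

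Other bZIP genes, whose proteins can pair with AP-1 or ATF factors, passed the F-test between litters in 6 of 22 cases, against 9.91% of all genes. Litter 2 was higher for 6, against 3.09%, and lower for 1, Maf, against 3%, and litter 4 was lower for 5, against 5.87%. The median over the list was 0.23 log2 for litter 2 and -0.20 log2 for litter 4. The count of 6 was 0 with eBayes without an intensity trend and 2 to 9 with arrays or litters left out, being 2 without litter 2 or its control sample and 9 without litter 1. Ddit3, the stress gene also called CHOP, gave 2319, 5346, 1848 and 1957 in transgenic samples of litters 1 to 4, against 2164, 5643, 1430 and 2052 in controls. Both samples of litter 2 were above all others, and the rise was 1.49 log2 (SE 0.10, limma adjusted p = 2.71e-05). Atf4, which acts upstream of Ddit3 and Atf3 in the integrated stress response, rose by 0.51 log2 (SE 0.08), and Cebpb by 0.69 log2 (SE 0.11), in the same litter. Maf was 0.55 log2 (SE 0.12) lower there than the mean of the others, which its litter 3 signal raised. Mean signals of Maf were 856.1, 704.9, 1463 and 898.8 in litters 1 to 4. Litter 3 stood 0.83 log2 (SE 0.12) above the others for Maf (limma adjusted p = 0.00512).

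Kinases and factors upstream of AP-1 passed in 3 of 20 cases (15%), near the 9.91% of all genes. The count was 0 with eBayes without an intensity trend, 1 with no filter and 0 to 4 with arrays or litters left out, being 0 without litter 2 or either of its samples and 1 without litter 3 or either of its samples. Srf, which binds the CArG box and is itself induced by serum, rose by 0.72 log2 (SE 0.12) in litter 2 and fell by 0.70 log2 (SE 0.12) in litter 4 (limma adjusted p of 0.00553 and 0.00502). Rps6ka3, a kinase gene, fell by 0.51 log2 (SE 0.11) in litter 2. Mrtfb, an Srf coactivator gene, was 0.41 log2 (SE 0.11) higher there (limma adjusted p = 0.0409), a call lost in 11 of 17 other settings, and its F-test was lost in 12 of 21. Elk4, another Srf partner, gave -0.34 log2 in litter 2 and did not pass. The median over the list was -0.02 log2 for litter 2 and -0.08 for litter 4.

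Genes known as AP-1 targets passed in 4 of 17 cases, against 9.91% of all genes. Litter 2 was higher for 5, against 3.09%, and lower for 0, against 3%, and litter 4 was lower for 2 (11.8%), against 5.87%. The count of 4 was 0 with eBayes without an intensity trend, 2 with no filter and 0 to 7 with arrays or litters left out. It was 0 without litter 2 or its control sample, 1 without the transgenic sample of litter 2 or either sample of litter 3, 2 without litter 3 and 7 without litter 1. Il6, an inflammatory cytokine gene, gave 256.6, 460.7, 253.3 and 262.7 in transgenic samples of litters 1 to 4, against 156.0, 370.7, 132.8 and 153.7 in controls, a rise of 1.00 log2 (SE 0.18) in litter 2 (limma adjusted p = 0.00813). The chemokine gene Cxcl1 rose by 1.02 log2 (SE 0.13) and Vegfa, an angiogenic factor gene, by 0.49 log2 (SE 0.10) in that litter. Mmp14, a membrane collagenase gene, fell by 0.33 log2 (SE 0.09) in litter 4 (limma adjusted p = 0.0423), a call lost in 10 of 17 other settings. Unlike the AP-1 genes, Mmp14 did not rise in litter 2, where it gave -0.29 log2 (SE 0.09, limma adjusted p = 0.0857). In litter 3 it was 0.40 log2 (SE 0.09) higher than in the others (limma adjusted p = 0.0422). Without litter 2 the F-tests of Cxcl1, Il6 and Ddit3 no longer passed (adjusted p of 0.209, 0.916 and 0.148). The median over the list was 0.03 log2 for litter 2 and -0.22 log2 for litter 4. In all 4 lists 0 genes passed between genotypes, against 0 of the 10989 genes tested. Of the targets named here, the transgenic sample was the higher in 4 of 4 litters for Il6 and Cxcl1, in 3 for Vegfa and in 1 for Mmp14. With litter as a block the unadjusted limma p was 0.00188 for Il6 and 0.00373 for Cxcl1, and the adjusted p 0.9998 for both.

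**Figure D4:**
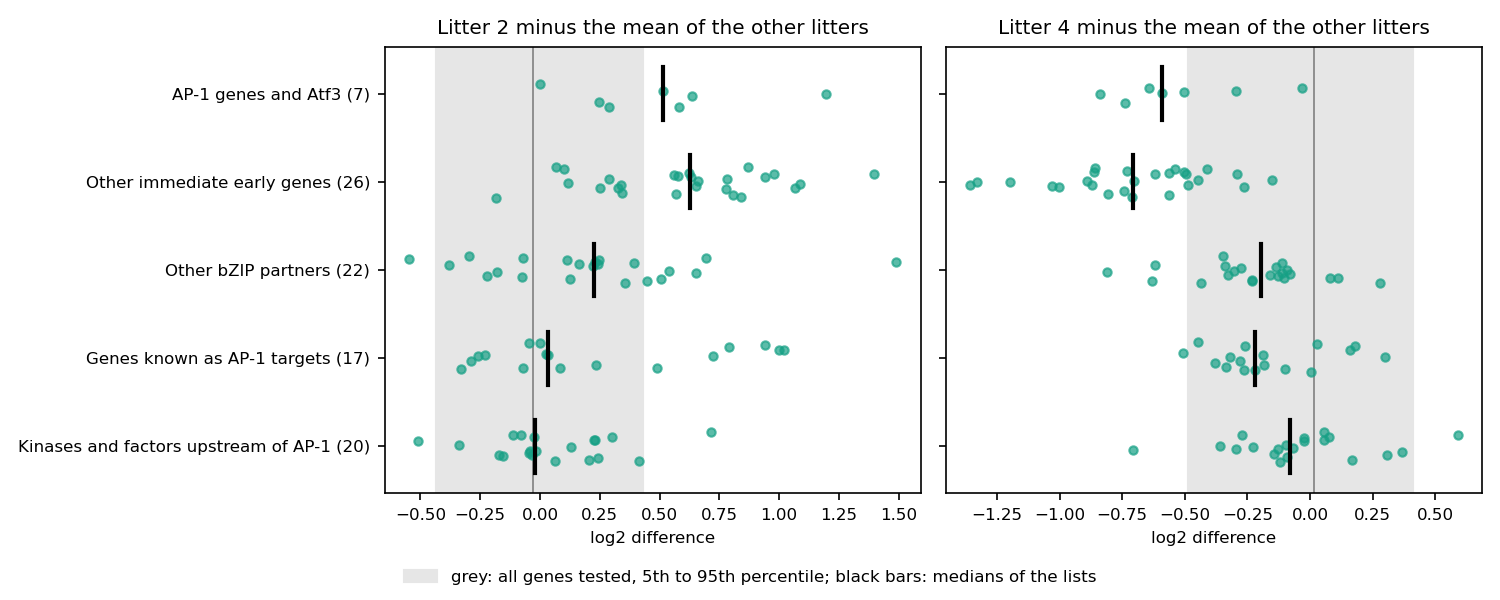
Fitted log2 difference of litter 2 (left) and litter 4 (right) from the mean of the other litters, 1 point per gene, for the 7 tested member genes and the tested genes of 4 lists, with black bars at list medians and a grey band from the 5th to the 95th percentile of all 10989 genes. Medians of the other immediate early genes stand at 0.63 and -0.71, outside the band on both sides, and those of the kinases and upstream factors at -0.02 and -0.08, inside it. The contrasts share arrays, so the panels are not independent.

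RNA quality ratios and the signals of several cell type markers also differed between litters. The ratio of 5-prime to 3-prime signal of beta-actin, lower in degraded RNA, was 0.592, 0.605, 0.647 and 0.475 in the transgenic samples of litters 1 to 4, against 0.590, 0.607, 0.641 and 0.512 in the controls. For Gapdh it was 1.29, 1.31, 1.36 and 1.14 in transgenic and 1.32, 1.26, 1.35 and 1.17 in control samples. Litter 4 was thus lowest in both ratios, while litter 2, highest in the AP-1 genes, lay below litter 3 in both. The ratio of middle to 3-prime signal of beta-actin was again lowest in litter 4, at 0.4535 in the transgenic and 0.4697 in the control sample. For Gapdh that ratio was 1.162, 1.115, 1.169 and 1.093 in the transgenic samples of litters 1 to 4. Controls gave 1.159, 1.082, 1.164 and 1.11, so litters 2 and 4 overlapped below the others. The part of RNA quality in the litter differences was not tested.

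**Figure D5:**
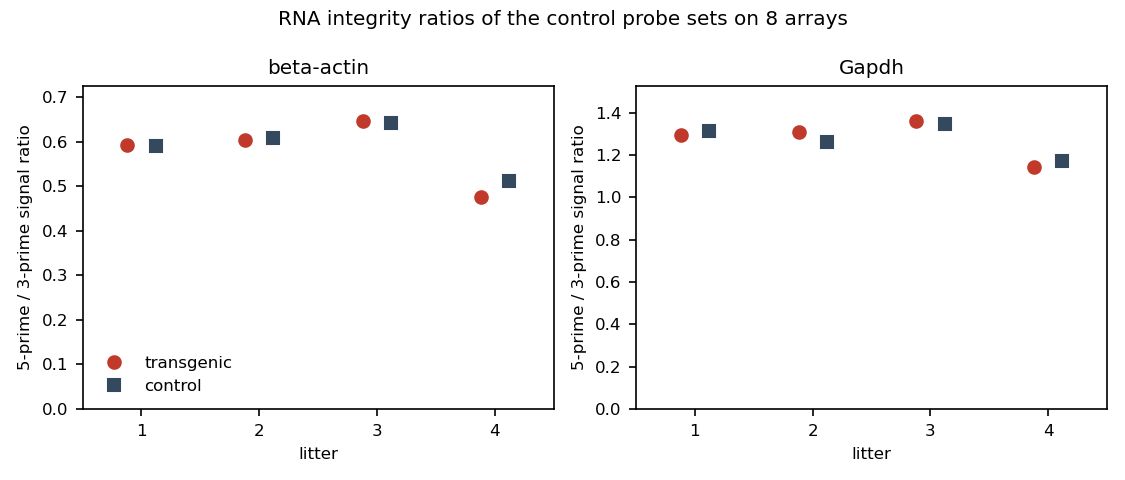
Ratio of 5-prime to 3-prime control probe set signal for beta-actin (left) and Gapdh (right) by litter number, with circles for transgenic and squares for control arrays. Litter 4 holds the lowest points, 0.475 and 0.512 for beta-actin, and litter 3 the highest.

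Markers of the labelled cell type were present: 8 of 8 chondrocyte genes passed the filter, and their summed signal was between 205370 and 233166 in transgenic and between 202184 and 264254 in control samples, highest in litter 2 and lowest in litter 4 for both genotypes, as for most AP-1 genes. Of the 8, 3 were higher in litter 2, against 3.09% of all genes, and 0 lower, against 3%. In litter 4, 2 of the 8 were lower, against 5.87%, and 0 higher, against 4.12%. By litter mean in the order 1, 2, 3 and 4, summed signals of skeletal muscle markers (6 of 6 tested) were 27099, 20968, 20438 and 26953, of fibroblast and perichondrium markers (6 of 6) 139040, 132876, 145176 and 133698, and of neutrophil markers (3 of 4) 3524, 1605, 2431 and 4413. Mast cell markers (1 of 3) summed to 171.8, 112.9, 624.6 and 232.2, and erythroid markers (2 of 4 with a probe set) to 4270, 3729, 2455 and 4287. Macrophage and osteoclast markers (5 of 6) lay between 2511 and 3612, osteoblast markers (3 of 3) between 868.0 and 1374, endothelial markers (4 of 4) between 622.9 and 945.9 and keratinocyte markers (1 of 3) between 629.5 and 726.9. Of the 6 skeletal muscle genes 2 were lower in litter 2, against 3% of all genes, and 0 higher, against 3.09%. In litter 4, 2 of the 6 were higher, against 4.12%, and 0 lower, against 5.87%. Of the 3 tested neutrophil genes 2 were lower in litter 2, against 3% of all genes, and 0 higher, against 3.09%. In litter 4, 2 of the 3 were higher, against 4.12%, and 0 lower, against 5.87%. S100a9, the brightest of them, gave 1277, 645, 908 and 1704 in transgenic samples of litters 1 to 4, against 2092, 821, 969 and 2524 in controls (limma F-test adjusted p = 0.000443). For the neutrophil markers litters 2 and 4 thus stood at the opposite ends from the AP-1 genes, and the calls of the muscle genes had the same directions. In bulk RNA fewer cells of a type and less RNA per cell cannot be told apart, and the part of cell makeup was not tested. Xist, expressed in female cells, was 6230, 14180, 5726 and 12660 in transgenic and 10060, 6091, 13940 and 11370 in control samples and did not follow litter.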

How the data were processed

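Total RNA of 8 samples was measured on Affymetrix arrays. The authors deposited linear intensity values, made with MAS5 per the submitters' processing notes, whose version and settings are not given in the sources used here. The mean after trimming 2% at each end was 500 on every array, array medians lay between 106.7 and 121.3; precision is limited by how few arrays there are. The 64 Affymetrix control probe sets stayed out of the tests. Symbols came from the 2016 platform annotation (34945 probe sets with 1 symbol, 34741 found in the RefSeq table, 0 symbols changed). Where a gene had several probe sets, the one brightest on average stood for it in gene counts.

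Probe sets whose signal averaged 110 or more (the median over probe sets) were kept, and log2(signal + 22.13), the added value being the 20th percentile of all signals, was fitted with limma 3.58.1 in R 4.3.3 (lmFit, eBayes with intensity trend, two-sided, Benjamini-Hochberg over all probe sets tested). The genotype fit had no covariates. The litter fit had genotype as covariate, a moderated F-test over 4 litters and 4 contrasts of a litter against the mean of the others. Steps were tested on simulated data.

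The labels tie each replicate number, 1 to 4, to a litter, so the numbers pair the samples. Deviations of same-litter samples from their group means correlated at 0.0251, 0.434, 0.376 and 0.379 over probe sets in litters 1 to 4. Transgenic and control samples of different litters correlated at -0.353 to 0.063. The pairing of litter 1 was thus not borne out by these values and rests on the labels. Litter 1 had 0 calls against the other litters in either direction. A litter near the mean of the others would give a low correlation even if rightly paired, so these values cannot decide this pairing.

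Members, lists and tests were chosen with earlier results of these data known. Named genes are all members, the 6 genes most correlated with Fos and with Atf3, up to 4 genes of each list with the smallest litter p, the brightest gene of each marker list and Hoxc8. Alternatives tried were a litter block, other offsets, filters, normalizations and eBayes settings, adjustment over the 4 contrasts together, no genotype term and leaving out arrays or litters. The litter block with quantile normalization, and with a litter left out, was added after seeing the data.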

Additional observations from a re-analysis of the deposited data

Results flagged for a closer look

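Samples were examined for standing apart from the other 3 of their genotype, by the distance of the highest or lowest sample to its neighbour as a share of the whole spread. This was done in 116 sets of 4 samples, and in 7 the share exceeded the 95% critical value, which chance passes in about 1 in 20. Many of the genes were picked by their litter differences or correlations, and both genotypes of a litter were counted. The chance rate is therefore no yardstick here. None of the 7 was a signal of an AP-1 gene or Atf3. The transgenic sample of litter 2 stood apart for Ddit3 at 5346 (next 2319) and for Il6 at 460.7 (next 262.7). The control sample of litter 2 stood apart for Il6 at 370.7 (next 156) and for Cxcl1 at 1796 (next 826.1). The transgenic sample of litter 3 was highest for the mast cell gene Cpa3 at 520 (next 164.3), and the control sample of litter 3 lowest for the erythroid gene Alas2 at 2183 (next 4006). The transgenic sample of litter 1 was lowest for the osteoblast gene Ibsp at 427.1 (next 564.2).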

How the results depend on the processing

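Between genotypes 0 members and 0 probe sets passed under all 26 other settings, the replicate block included (0 members). Uncalled genotype differences changed sign for Fos with median centring (0.0040) and with the block without litter 2 (0.0059), and for Junb (-0.019) and the brighter Jun probe set (-0.023) with the block without litter 3. With arrays or litters left out the differences ranged from -0.10 to 0.065 for Fos, -0.085 to 0.24 for Fosb, -0.13 to 0.17 and -0.10 to 0.29 for the brighter and dimmer Jun probe sets, -0.063 to 0.26 for Junb, -0.15 to 0.22 for Jund and -0.050 to 0.55 for Atf3. The uncalled litter contrasts of the brighter Fosl2 probe set changed sign with quantile normalization (-0.016 for litter 2, 0.0044 for litter 4) and median centring (-0.083 for litter 2), and ranged from -0.092 to 0.096 and from -0.18 to 0.12 with arrays left out. The block changed no call.

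Of the 9 members, the number past the F-test between litters was 0 with eBayes without an intensity trend and 5 to 7 with arrays or litters left out. The number higher in litter 2 was 1 without the trend and 2 to 6 with arrays left out, the lowest without the control sample of litter 2. The number lower in litter 4 was 0 without the trend and 5 to 7 with arrays left out. The call of Atf3 lower in litter 3 was lost (0 members) with no filter, with median centring and without the trend, and the count was 0 to 1 with arrays left out. Over all probe sets, 2027 passed the F-test, against 995 of 45037 with no filter (all probe sets but the controls), 0 without the trend and 546 to 3047 with arrays or litters left out; litter 2 was higher for 815 (459 with no filter, 71 without the trend, 71 to 1147 with arrays left out), litter 4 lower for 1253 (787, 0 and 427 to 1103) and litter 3 lower for 302 (107, 0 and 8 to 459, and 194 with median centring). The causes were not tested. Other settings moved the member counts by less than 1.5 times.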
